A study of Homo sapiens with 2 samples.

Results

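The ERBB receptors are a family of receptor tyrosine kinases, and the EGF-family ligands are the growth factors that bind them. The genes were the rows of the deposited table whose symbol is one of 4 receptors (EGFR, ERBB2, ERBB3, ERBB4) or 6 ligands (AREG, EREG, TGFA, HBEGF, BTC, NRG1). All 10 of these genes were found among the 21382 genes of the table. RNA-Seq had been performed on total RNA of MDA PCa 2b, a prostate cancer cell line derived from a bone metastasis, and of RC77 T/E, an immortalised line from a primary prostate tumour, both untreated and with 1 library each. MDA PCa 2b was grown in F-12 medium with 20% serum, cholera toxin, hydrocortisone, insulin and 10 ng/ml mouse EGF. RC77 T/E was grown in a keratinocyte medium that also contains EGF, together with bovine pituitary extract, so an EGFR ligand was supplied to both lines. Medium and cell line cannot be told apart as sources of a difference. Where values of a pair of libraries are given without the lines, MDA PCa 2b comes first. With 1 library per line no value has a replicate error, no test between the lines was possible, and every difference below describes these libraries.

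An EGF-family ligand is made as a transmembrane precursor and is released by proteases at the cell surface. It then binds a receptor, which pairs with another receptor of the family and signals through the RAS-MAPK and PI3K-AKT routes. AREG and TGFA bind EGFR, whereas HBEGF, BTC and EREG bind both EGFR and ERBB4. NRG1 binds ERBB3 and ERBB4. ERBB2 has no known ligand of its own and acts as the preferred partner of the others, and ERBB3 has little kinase activity and depends on its partner. In the prostate, EGFR is typical of the basal layer of the epithelium.

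Expression was deposited as TPM, in which the authors scaled reads by transcript length and by the sum of the library, so that levels of different genes can be set side by side within a library. TPM keeps no read counts, and the depth of each library is unknown. In the table, values from 1 TPM upwards that carry 3 or more decimals had lost their decimal mark. The mark could be restored without ambiguity for 6 members, and it remains undetermined by a factor of 10 or 100 for 4 members (EGFR, ERBB2, ERBB3 and TGFA). For these 4 members every possible TPM is given. The position of the mark is shared by both lines, so the plain ratio between the lines did not depend on it for any member, whereas log2 ratios are given at the lowest position. All 4 epithelial markers reached 1 TPM in both lines. All 6 prostate luminal markers were at least 2-fold higher in MDA PCa 2b, where KLK3 had 5323 TPM, while RC77 T/E has KLK3 and FOLH1 listed at 0. All 4 prostate basal markers were at least 2-fold higher in the RC77 T/E library, where KRT5 had 4027 TPM against 0.00435 TPM. Of 14 markers of fibroblasts, leukocytes, endothelium and platelets, 0 reached 1 TPM in MDA PCa 2b, and 2 did in RC77 T/E cells (COL1A1 at 8.24 and CD14 at 4.92 TPM). The 14 markers summed to 2.74 TPM in MDA PCa 2b, with 3 listed at 0, and to 14.8 TPM in the RC77 T/E library, with 6 listed at 0. PTPRC, which defines leukocytes, had 0.0113 TPM in the former and is listed at 0 in the latter, and the part of other cells in the results was not tested. In bulk RNA, fewer cells that express a gene and less RNA per cell cannot be told apart.

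More of the ligands were expressed in RC77 T/E cells, whereas the number of expressed receptors was equal. At a threshold of 1 TPM, 3 of 4 receptors were expressed in both lines, and they were the same 3 (EGFR, ERBB2 and ERBB3). Only 1 of the 6 ligands (TGFA) reached 1 TPM in MDA PCa 2b, whereas 5 of 6 did in RC77 T/E cells, where BTC alone stayed below it. Together 4 of 10 members were expressed in MDA PCa 2b and 8 of 10 in RC77 T/E cells, beside 49.6% and 52.8% of all 21382 genes. The mean of both lines was 1 TPM or more for 8 of 10 members, all but ERBB4 and BTC. For the comparison between lines, a pseudocount of 1 TPM was added and the RC77 T/E value was divided by that of MDA PCa 2b and put on the log2 scale, and a log2 value of 1 (2-fold) was called apart by size alone. Of the 8 members with a sufficient mean, 6 were higher by 2-fold or more in RC77 T/E cells and 2 (ERBB2 and ERBB3) were lower by as much. Over all 11624 genes that passed the same limit, 19.4% were higher in RC77 T/E cells by 2-fold or more and 20% were lower, together 39.3%, and the median log2 ratio was -0.15. The median over the 8 members was 2.63, and it was 1.6 with ERBB4 and BTC included. AREG, EREG, HBEGF and NRG1 passed the limit only through RC77 T/E, and BTC, which was higher in MDA PCa 2b, did not pass. The counts and the median of the members thus depend in part on this limit.

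**Figure D1:**
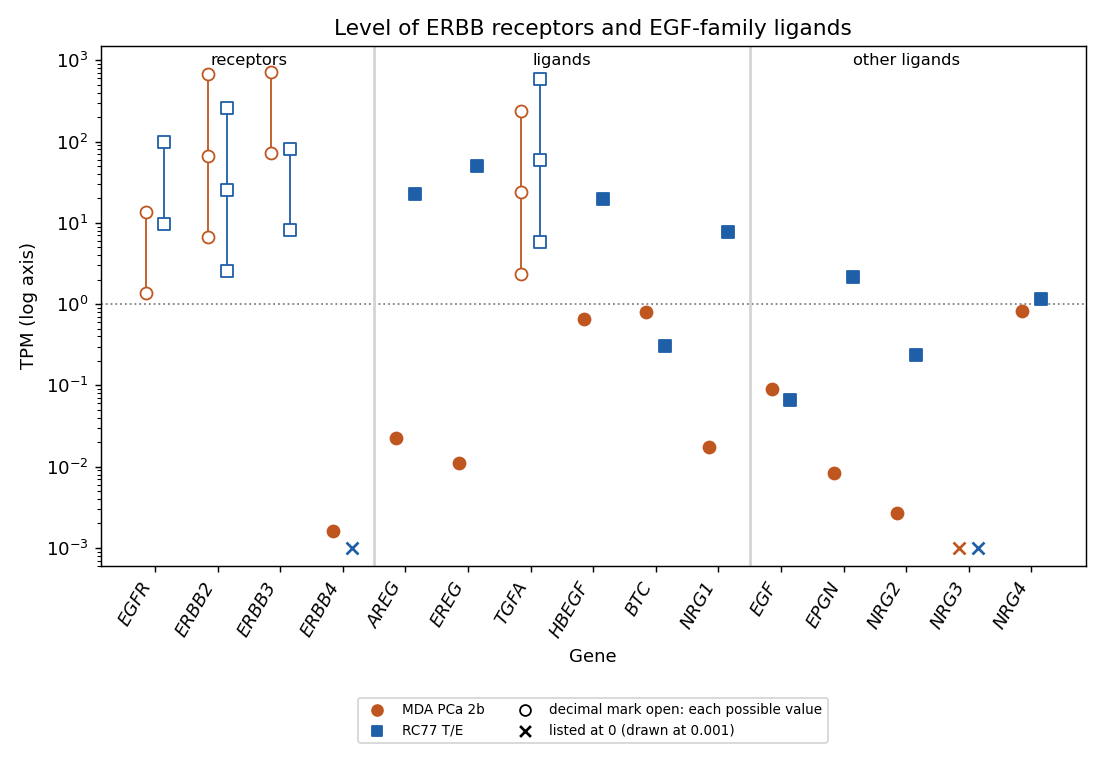
TPM on a log axis of the 10 members and of 5 other ligands of the family, with circles for the MDA PCa 2b library and squares for the RC77 T/E library. Open symbols joined by a line are the possible values of a gene whose decimal mark is open, the dotted line is 1 TPM, and AREG, EREG, HBEGF and NRG1 lie below it in MDA PCa 2b and above it in RC77 T/E cells.

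EGFR was higher in RC77 T/E cells, and ERBB2 and ERBB3 were higher in MDA PCa 2b. EGFR (ENSG00000146648, chromosome 7 of GRCh38, 55019017 to 55211628, plus strand), the receptor of EGF, was at 1.38 or 13.8 TPM in MDA PCa 2b and at 9.75 or 97.5 TPM in RC77 T/E cells. EGFR had 7.08 times its MDA PCa 2b level in RC77 T/E cells, with a log2 ratio of 2.18. ERBB2 (ENSG00000141736, chromosome 17, 39687914 to 39730426, plus strand), the target of trastuzumab, was at 6.73, 67.3 or 673 TPM in MDA PCa 2b and at 2.56, 25.6 or 256 TPM in RC77 T/E cells. ERBB2 had 2.63 times its RC77 T/E level in MDA PCa 2b, with a log2 ratio of -1.12, which came to -0.97 and no longer passed 2-fold when centred on the median of all genes. ERBB3 (ENSG00000065361, chromosome 12, 56076799 to 56103505, plus strand), the neuregulin receptor, was at 72.4 or 724 TPM in MDA PCa 2b and at 8.07 or 80.7 TPM in RC77 T/E cells. ERBB3 had 8.97 times its RC77 T/E level in MDA PCa 2b, and its log2 ratio of -3.02 was lower than that of 11341 of the 11624 genes. ERBB4 (ENSG00000178568, chromosome 2, 211375717 to 212538841, minus strand), a receptor for neuregulins and for some EGFR ligands, had 0.00162 TPM in MDA PCa 2b but is listed at 0 for RC77 T/E. With the depth unknown, such a value cannot be told from 0.

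The balance among the receptors can be stated without the open decimal marks. The ratio of EGFR to ERBB3 was higher in RC77 T/E cells by 63.5 times, and the ratio of EGFR to ERBB2 by 18.6 times. The ratio of ERBB2 to ERBB3 was higher there by 3.41 times. These values do not depend on how either library was scaled, because each compares genes of the same library. In MDA PCa 2b, ERBB3 exceeded EGFR at every position of the marks, since EGFR was between 0.0019 and 0.19 times ERBB3. In RC77 T/E cells EGFR was between 0.121 and 12.1 times ERBB3, so their order is not determined there. The gene ERBB2 overlaps PGAP3 and MIEN1, which lie on the opposite strand. Both were also higher in MDA PCa 2b, by 3.1 times and 4.46 times. The library kit keeps the strand, but the sources used here do not say whether it was used in quantification, and the part of these genes in the ERBB2 value was not tested. ERBB3 shares its strand with an overlapping protein-coding model, AC034102.2, whose value was not used here. EGFR overlaps the antisense gene EGFR-AS1, which had 0.0863 TPM in MDA PCa 2b against 0.452 TPM in RC77 T/E.

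The ligands were higher in RC77 T/E cells with the exception of BTC. EREG (epiregulin, ENSG00000124882, chromosome 4 of GRCh38, 74365145 to 74388749, plus strand) had 0.0111 TPM in MDA PCa 2b against 49.9 TPM in RC77 T/E. Its log2 ratio was 5.65, and 140 of the 11624 genes had a higher one. AREG (amphiregulin, ENSG00000109321, chromosome 4, 74445136 to 74455005, plus strand) is listed at 2 loci, which were summed. The first locus had 0.0228 TPM in MDA PCa 2b against 21 TPM in RC77 T/E, and the other is listed at 0 in MDA PCa 2b and had 1.38 TPM in RC77 T/E. The summed AREG was thus at 0.0228 and 22.4 TPM, with a log2 ratio of 4.52, and 257 genes had a higher ratio. Both genes were thus near 0 in MDA PCa 2b only, and no plain ratio is given against such a level without read counts.

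HBEGF (heparin-binding EGF-like growth factor, ENSG00000113070, chromosome 5, 140332843 to 140346603, minus strand), which also serves as the diphtheria toxin receptor, had 0.661 TPM in MDA PCa 2b against 19.8 TPM in RC77 T/E, with a log2 ratio of 3.65. NRG1 (neuregulin 1, ENSG00000157168, chromosome 8, 31639222 to 32855666, plus strand) had 0.0173 TPM in MDA PCa 2b against 7.66 TPM in RC77 T/E, with a log2 ratio of 3.09. Log2 ratios of 3 or more, as for these 4 ligands, were found in 5.33% of the 11624 genes. TGFA (transforming growth factor alpha, ENSG00000163235, chromosome 2, 70447284 to 70554193, minus strand) was at 2.38, 23.8 or 238 TPM in MDA PCa 2b and at 5.87, 58.7 or 587 TPM in RC77 T/E cells. It was the only one of the 6 ligands above 1 TPM in both lines, and RC77 T/E had 2.47 times the level of MDA PCa 2b. Its log2 ratio with the pseudocount was 1.02, close to the limit of 1, and 1.30 at the highest position of the mark. BTC (betacellulin, ENSG00000174808, chromosome 4, 74744759 to 74794523, minus strand) had 0.803 TPM in MDA PCa 2b against 0.301 TPM in RC77 T/E, below 1 TPM in both.

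**Figure D2:**
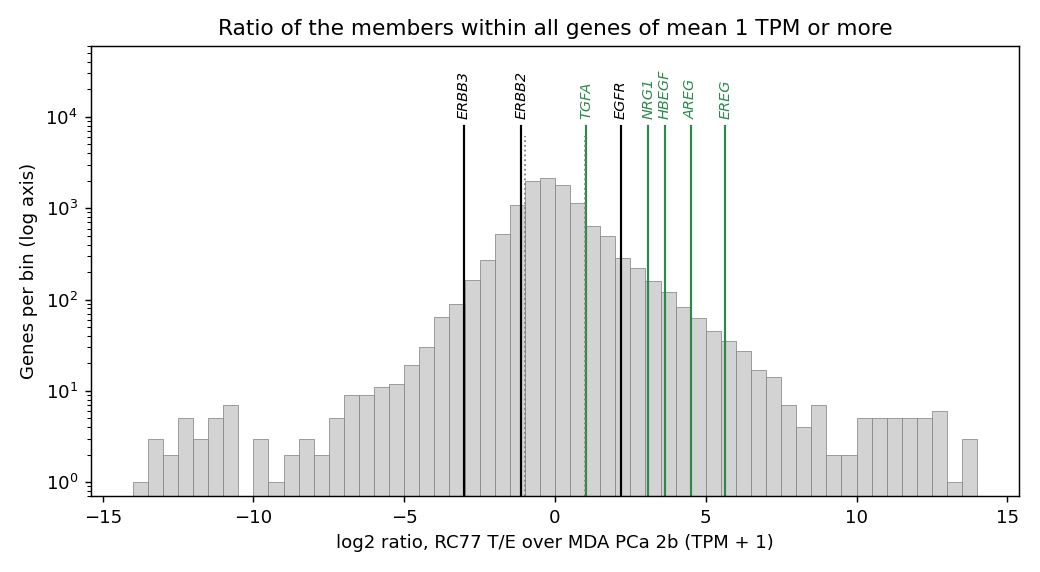
Distribution of the log2 ratio of RC77 T/E over MDA PCa 2b (TPM plus 1) over the 11624 genes whose mean was 1 TPM or more, with the number of genes per bin on a log axis. Lines mark the 8 members with such a mean (receptors in black, ligands in green) and dotted lines mark 2-fold, with ERBB3 at -3.02 and EREG at 5.65 as the outermost members.

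In RC77 T/E cells the order of the ligand members with a fixed decimal mark was EREG, AREG, HBEGF, NRG1 and BTC. EREG was 2.23 times AREG, and AREG was 1.13 times HBEGF. TGFA lay between BTC and NRG1 at the lowest position of its mark and above EREG at the others. In MDA PCa 2b TGFA was the highest, followed by BTC, HBEGF, AREG, NRG1 and EREG, so that EREG stood last there and first among the fixed ligands of RC77 T/E. Without replicates, no pair of neighbours in these orders can be set against an error. The sum of the EGFR ligands AREG, EREG, HBEGF and BTC was 1.5 TPM in MDA PCa 2b and reached 92.4 TPM in RC77 T/E cells, a 61.7-fold difference. BTC and HBEGF made up 53.6% and 44.1% of the sum in MDA PCa 2b, whereas EREG, AREG and HBEGF made up 54%, 24.2% and 21.4% in RC77 T/E cells. With TGFA included, the sum differed 25.4-fold in the same direction at the lowest position of its mark and 2.84-fold at the highest, so the size of the difference in the total depends on the decimal mark of TGFA.

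The family has 5 further ligands that were not among the members. EGF, the founding ligand, had 0.0897 TPM in MDA PCa 2b against 0.0667 TPM in RC77 T/E, below 0.1 TPM in both lines, while both media contained the protein. EPGN (epigen), another EGFR ligand, was at 0.00826 and 2.15 TPM. NRG2, which binds ERBB3 and ERBB4, was at 0.0027 and 0.236 TPM. NRG4, which binds ERBB4 and overlaps FBXO22 on the opposite strand, was at 0.834 and 1.16 TPM, and NRG3 is listed at 0 in both lines. In all, 0 of these 5 ligands reached 1 TPM in MDA PCa 2b and 2 did in RC77 T/E cells.

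Pairs of a ligand and its receptor were then compared within each library. Of the 10 known pairs among the members, 1 had both partners expressed in MDA PCa 2b at the limit of 1 TPM (TGFA with EGFR). In RC77 T/E cells there were 5 such pairs, in which AREG, EREG, HBEGF and TGFA were paired with EGFR, and NRG1 with ERBB3. None of the 4 pairs with ERBB4 passed in either line. Since EGFR and ERBB3 passed this limit in both lines, the counts of 1 and 5 pairs restate the ligand calls given above and are no separate result. ERBB4 was below 1 TPM in both lines, and so were EREG, HBEGF, BTC and NRG1 in MDA PCa 2b and BTC in RC77 T/E cells. The further ligands form 6 pairs with these receptors, of which 0 had both partners expressed in MDA PCa 2b and 1 did in RC77 T/E cells (EPGN with EGFR). The pair of NRG1 and ERBB3 was split in MDA PCa 2b, where the ligand was at 0.0173 TPM and the receptor at 72.4 or 724 TPM. In RC77 T/E cells the ligand was at 7.66 TPM and the receptor at 8.07 or 80.7 TPM, so that NRG1 was between 0.095 and 0.95 of ERBB3.

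EGFR and all its member ligands but BTC were higher in RC77 T/E cells. EREG was between 0.512 and 5.12 times EGFR there and at most 0.00803 of EGFR in MDA PCa 2b. AREG was between 0.23 and 2.3 times EGFR in RC77 T/E cells and at most 0.0166 of EGFR in MDA PCa 2b. HBEGF was between 0.203 and 2.03 times EGFR in RC77 T/E cells and between 0.0479 and 0.479 of EGFR in MDA PCa 2b. The ranges come from the undetermined decimal mark of EGFR, whose position is the same in both lines. At either position these 3 ratios were therefore higher in RC77 T/E cells. The ratios of the other two ligands to EGFR were lower there. BTC was between 0.0583 and 0.583 of EGFR in MDA PCa 2b and between 0.00309 and 0.0309 of EGFR in RC77 T/E cells. TGFA, whose own mark is also undetermined, was between 0.173 and 172.5 times EGFR in MDA PCa 2b and between 0.0602 and 60.2 times EGFR in RC77 T/E cells, and at the same positions of both marks its ratio was lower in RC77 T/E cells.

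**Figure D3:**
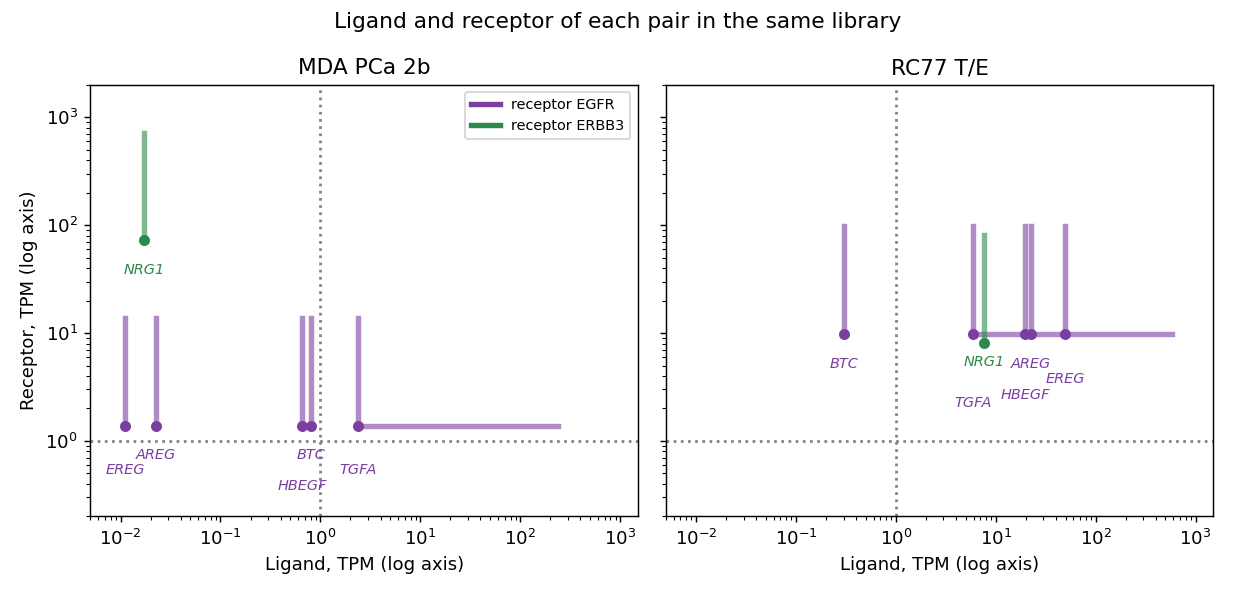
Level of the ligand (horizontal, TPM on a log axis) and of its receptor (vertical, TPM on a log axis) for the 6 pairs of members with EGFR or ERBB3, in MDA PCa 2b on the left and RC77 T/E on the right. Points are the lowest and bars the further possible positions of open decimal marks, dotted lines are 1 TPM, and 1 pair on the left and 5 on the right lie above both lines.

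Of the 6 ligand members, 3 lie close to each other on chromosome 4, where EPGN, EREG and AREG follow one another on the plus strand and BTC lies 289.8 kb beyond AREG on the minus strand. The gap to AREG is 56.4 kb for EREG and 128.3 kb for EPGN. The 3 plus-strand genes were between 0.00826 and 0.0228 TPM in MDA PCa 2b and between 2.15 and 49.9 TPM in RC77 T/E cells, whereas BTC was higher in MDA PCa 2b. Among the other protein-coding genes within 500 kb of AREG, the chemokine genes CXCL2 and CXCL3 were also higher in RC77 T/E cells, at 0.197 and 7.81 TPM and at 0.201 and 4.33 TPM. The gene MTHFD2L, named after its values were seen because it lies next to EPGN, was at 1.38 and 2.88 TPM. PARM1, on the far side of BTC, went the other way, with 16.8 TPM in MDA PCa 2b against 0.193 TPM in RC77 T/E. Of the 6 neighbours of AREG with a sufficient mean, 4 were higher and 1 (PARM1) was lower in RC77 T/E cells by 2-fold or more. Over all genes these shares were 19.4% and 20%. The 4 include the family genes EREG and EPGN beside CXCL2 and CXCL3. All 4 were below 1 TPM in MDA PCa 2b and passed the limit on the mean only through RC77 T/E.

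**Figure D4:**
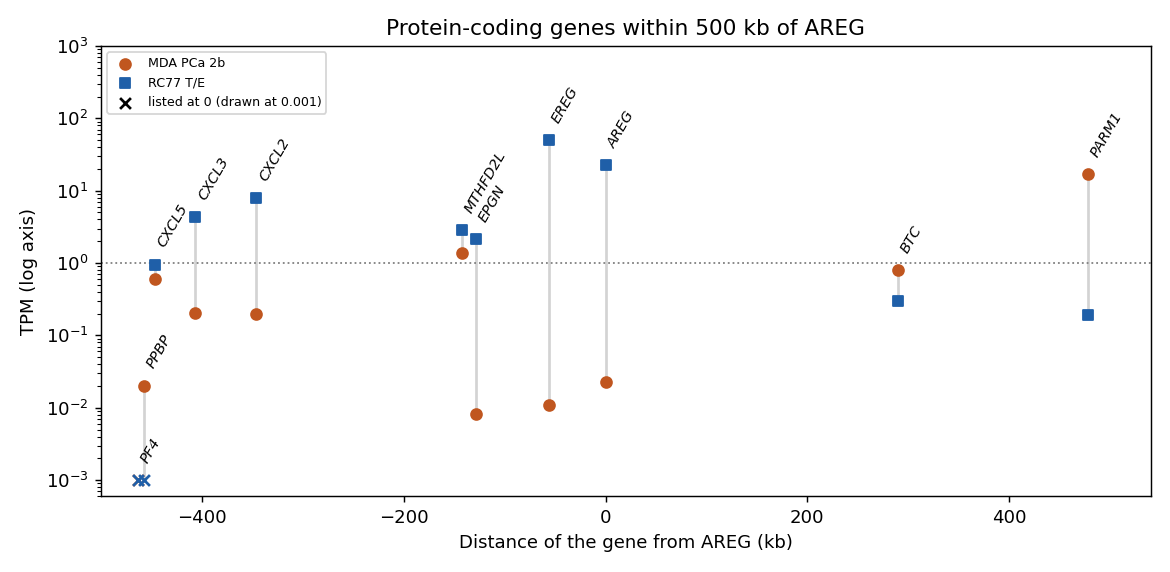
TPM on a log axis of AREG and the 10 protein-coding genes within 500 kb, by the distance of each from AREG in kb, with circles for MDA PCa 2b and squares for RC77 T/E. The longest gaps between plotted levels above 0 are those of EREG, AREG and EPGN, whereas PARM1, BTC and PPBP are higher in MDA PCa 2b, and crosses mark PF4 and PPBP where they are listed at 0.

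The promoters of these 4 neighbouring ligand genes are shown because EPGN, EREG and AREG were higher in RC77 T/E cells and BTC was not. Promoters were found in RefSeq for 8 of the 10 members, and each sequence below is the 250 bases before the transcription start on GRCh38.p14, read 5′ to 3′ on the strand of the gene. Capitals mark matches on either strand to 4 motifs, namely TATAAA for the TATA box, TGANTCA for AP-1, TGACGTCA for the cyclic AMP response element and GGGCGG for the GC box. The positions are chr4:74308220-74308469 for EPGN, chr4:74364895-74365144 for EREG and chr4:74444886-74445135 for AREG, all on the plus strand, and chr4:74794524-74794773 on the minus strand for BTC.
EPGN: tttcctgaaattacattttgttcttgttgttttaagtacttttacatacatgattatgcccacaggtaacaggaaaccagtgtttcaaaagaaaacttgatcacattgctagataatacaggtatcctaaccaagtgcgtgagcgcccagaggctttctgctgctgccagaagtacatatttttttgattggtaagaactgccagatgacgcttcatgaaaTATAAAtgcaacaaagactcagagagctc
EREG: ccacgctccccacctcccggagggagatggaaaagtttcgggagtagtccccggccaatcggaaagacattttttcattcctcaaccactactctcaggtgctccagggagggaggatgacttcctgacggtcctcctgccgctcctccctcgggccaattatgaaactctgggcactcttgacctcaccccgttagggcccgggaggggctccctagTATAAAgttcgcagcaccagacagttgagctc
AREG: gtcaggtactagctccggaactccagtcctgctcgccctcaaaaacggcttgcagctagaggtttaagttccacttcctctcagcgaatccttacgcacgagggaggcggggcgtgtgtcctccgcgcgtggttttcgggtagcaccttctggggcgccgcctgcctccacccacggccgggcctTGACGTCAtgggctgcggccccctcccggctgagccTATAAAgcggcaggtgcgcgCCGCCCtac
BTC: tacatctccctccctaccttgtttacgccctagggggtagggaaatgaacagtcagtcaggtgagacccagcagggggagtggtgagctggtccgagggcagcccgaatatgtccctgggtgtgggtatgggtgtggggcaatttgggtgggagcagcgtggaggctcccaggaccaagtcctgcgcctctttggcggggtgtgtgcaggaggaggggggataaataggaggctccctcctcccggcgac

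The promoters of EPGN, EREG and AREG each hold TATAAA, whose first base lies 29, 32 and 29 bases before the start. These letters occur on either strand in 10.7% of all 35116 RefSeq promoters of this length, and begin 24 to 35 bases before the start on the strand of the gene in 2.18%, a window chosen after the positions had been seen. The BTC window holds none of the 4 motifs in their exact letters. It holds gataaa, which differs from TATAAA in the first letter only and also begins within the 24 to 35 bases before the start. AREG also holds TGACGTCA, 65 bases before its start, which is present in 1.65% of promoters, and GGGCGG on the opposite strand, which is present in 42.6%. The window of HBEGF, which lies on another chromosome, was searched as well. It holds GGGCGG but not TATAAA, although HBEGF was also higher in RC77 T/E cells. TGANTCA was found in none of the 4 windows shown and is present in 6.57% of promoters. These matches describe the letters of the reference and not binding in these cells, and their relation to the levels was not tested.

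Genes that process, carry and transmit the signal were grouped in lists, and their calls and ratios, too, are at the lowest position of the mark. Of 8 genes for the shedding and trafficking of ligands, 3 were higher and 1 was lower in RC77 T/E cells by 2-fold or more. ADAM17, the main sheddase of AREG, EREG, TGFA and HBEGF, had 3.22 times its MDA PCa 2b level in RC77 T/E cells. RHBDF2, which encodes an iRhom that escorts ADAM17 to the cell surface, was 21.3 times as high. The same ratio was 5.79 for the rhomboid protease RHBDL2. RHBDF1, a further iRhom gene of this list named after its values were seen, had 22.5 TPM in MDA PCa 2b. Its level in RC77 T/E was 31.8 TPM, short of 2-fold. In MDA PCa 2b, RHBDF1 lay above RHBDF2 at either position of the RHBDF2 mark (1.12 or 11.2 TPM). FURIN, a proprotein convertase, had 2.62 times its RC77 T/E level in MDA PCa 2b. ADAM10, the main sheddase of BTC, had 1.49 times its MDA PCa 2b level in RC77 T/E cells, short of 2-fold.

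Of 8 co-receptors and heparan sulfate carriers, 7 had a mean of at least 1 TPM. Among them 4 were higher and 1 was lower in RC77 T/E cells by 2-fold or more, beside 19.4% and 20% over all genes. CD44, whose variant forms present HBEGF, had 0.786 TPM in MDA PCa 2b against 364 TPM in RC77 T/E. MUC1, named after its values were seen, had 0.471 TPM in MDA PCa 2b against 2.72 TPM in RC77 T/E. CD44 and MUC1 thus passed the limit on the mean only through RC77 T/E, so their direction in the count follows from the limit. The heparan sulfate proteoglycan genes GPC1 and SDC4 were 32.2 and 13.8 times as high in RC77 T/E cells. SDC1, a further such gene named after its values were seen, had 137 TPM in MDA PCa 2b against 266 TPM in RC77 T/E, short of 2-fold. In MDA PCa 2b it exceeded GPC1 and SDC4 at every position of their marks. CD9, a tetraspanin that binds the HBEGF precursor, was high in both lines, at 775 and 558 TPM. The neuropilin gene NRP1 had 2.88 times its RC77 T/E level in MDA PCa 2b.

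Of 22 adaptors and kinases below the receptors, 5 were higher and 2 were lower in RC77 T/E cells by 2-fold or more, with a median log2 ratio of -0.22 beside -0.15 over all genes. SHC1, an adaptor that binds activated receptors, had 9.43 times its MDA PCa 2b level in RC77 T/E cells, and PLCG1, PIK3CA and GRB7 were 2.83, 2.67 and 2.3 times as high. The docking protein gene GAB1 had 0.808 TPM in MDA PCa 2b against 3.06 TPM in RC77 T/E. AKT1 and PIK3R2 were 3.42 and 3.21 times as high in MDA PCa 2b. STAT3, a transcription factor that the receptors can activate, was at 25.6 and 23.8 TPM.

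Genes that restrain the receptors went both ways, 5 of 15 being higher and 4 lower in RC77 T/E cells by 2-fold or more. ERRFI1, an inhibitor of the EGFR kinase, had 5.18 times its MDA PCa 2b level in RC77 T/E cells, where EGFR was also higher. LRIG3 had 1.8 TPM in MDA PCa 2b against 7.2 TPM in RC77 T/E. LRIG1, which lowers the amount of ERBB receptors at the surface, had 7.62 times its RC77 T/E level in MDA PCa 2b. RNF41, the ubiquitin ligase that targets ERBB3, had 6.67 times its RC77 T/E level in MDA PCa 2b, where ERBB3 was also higher.

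Of 10 transcripts known to follow MAPK activity, 9 had a mean of at least 1 TPM. Among them 4 were higher and 2 were lower in RC77 T/E cells by 2-fold or more, beside 19.4% and 20% over all genes. PHLDA1 had 0.472 TPM in MDA PCa 2b against 68.8 TPM in RC77 T/E. The feedback inhibitor SPRY2 was at 0.123 and 7.8 TPM. PHLDA1 and SPRY2 thus passed the limit on the mean only through RC77 T/E, so their direction in the count follows from the limit. DUSP6, a phosphatase of ERK, and the receptor gene EPHA2 were 7.21 and 7.41 times as high in RC77 T/E cells. SPRY4 and DUSP4 were 9.13 and 3.2 times as high in MDA PCa 2b. ETV4, ETV5 and CCND1 were short of 2-fold, and the median of the list was -0.20, so the list had no common direction.

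**Figure D5:**
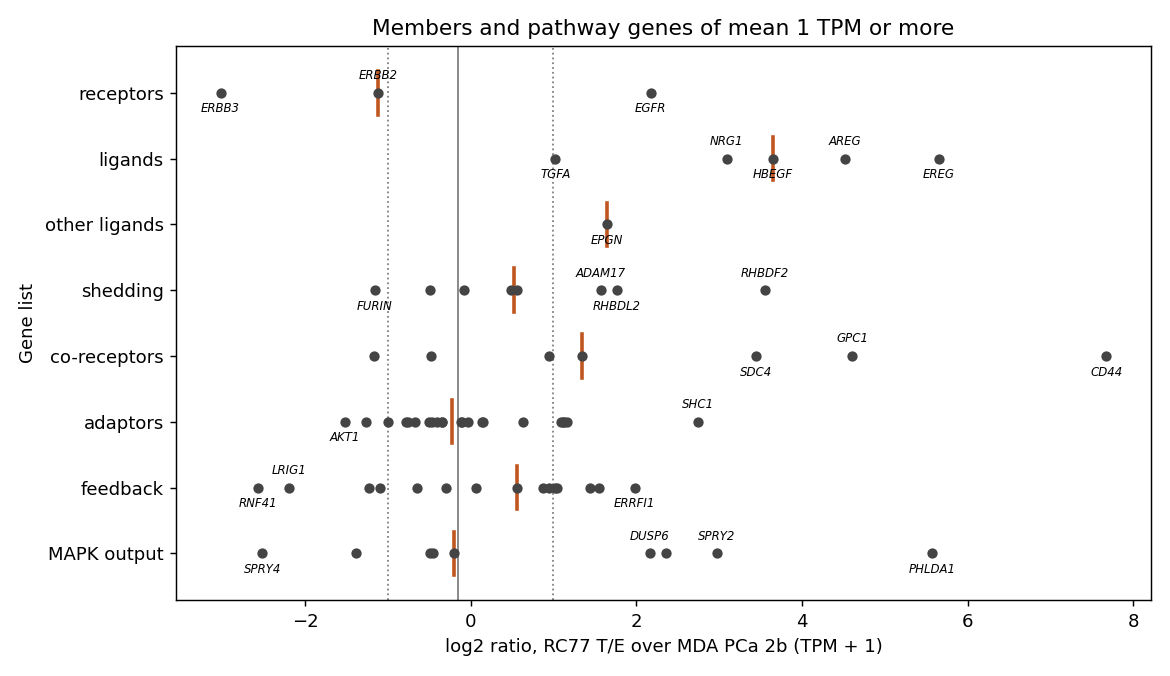
Log2 ratio of RC77 T/E over MDA PCa 2b (TPM plus 1) of each gene with a mean of at least 1 TPM, in rows by list, with an orange bar at the median of the row. The grey line is the median of all genes at -0.15 and dotted lines are 2-fold. The ligands drawn lie to the right, while receptors, feedback genes and MAPK output genes lie on both sides. BTC, which was higher in MDA PCa 2b, had too low a mean to be drawn.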

How the data were processed

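The 2 libraries, 1 per line (paired-end and directional, total RNA), were analysed from the table the authors deposited. Per the file headers its values are TPM, which the authors normalised for length and library total, with the mean and standard error of both lines. The submitters' processing notes name CASAVA, FastQC 0.11.9, Trimmomatic 0.38, Salmon 1.2.0 and GRCh38, without their roles. The aligner and annotation are not given in the sources used here, and the row identifiers have the form given by Cufflinks. Plain TPM had been assumed, but in many cells commas stand where the decimal mark is lost. Every position of the mark that left at least 3 decimals was tried and kept when it returned the deposited mean and standard error. This left 1 position in 16284 of 22791 rows and 2 or 3 in 6507, and the lowest was used for sums and ratios. The step was tested on simulated data. Repeated rows (87) were dropped and loci of one symbol were summed to 21382 genes. Library totals and depth are not determined, so no interval is given.

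No test was made. A gene was called expressed at 1 TPM, and apart at 2-fold on log2(TPM + 1), which understates the change of low genes. Pairs, lists and neighbours (protein-coding, within 500 kb) were described by counts and medians. The members and lists were chosen with earlier results of these data known. Named genes are the members, the genes of the lists with the largest and smallest ratio or level, and protein-coding neighbours that were 2-fold apart or belong to the family. Exceptions are marked in the text. Positions of the members were set against GENCODE release 29, whose gene starts lay within 164 bases for all 10 members and whose ends lay within 87707 bases, the largest gap being NRG1. Sequences are from RefSeq (GRCh38.p14). Protein sequences were not used here. Alternatives concerned the threshold, the pseudocount, scaling, the filter, the locus and the position of the mark. Python 3.11.15, numpy 2.4.6 and matplotlib 3.10.9 were used.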

Additional observations from a re-analysis of the deposited data

How the results depend on the processing

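No paired analysis was possible because only 1 library stands for each line. A value was counted as changed when it moved by more than 1.5 times, and the 8 members with a mean of at least 1 TPM kept their direction under the alternatives run. The medians of the members, ligands, shedding, adaptor, feedback, MAPK and co-receptor lists kept theirs, and the receptor median was not recomputed. ERBB4, near 0 in both lines, had a log2 ratio of -0.0023 and of 0.15 after centring. Raising the threshold to 5 TPM left 2 members (ERBB2 and ERBB3) and 0 pairs in MDA PCa 2b, and at 0.5 TPM there were 3 pairs, since HBEGF and BTC then counted. The combination of 5 TPM with the highest positions, chosen after seeing the data, gave 4 members and 1 pair in MDA PCa 2b. Centring on the median left 1 member at least 2-fold higher in MDA PCa 2b, because ERBB2 came to -0.97. A pseudocount of 0.1 TPM gave log2 ratios of 7.52 for AREG, 8.81 for EREG and 6.05 for NRG1, and medians of 6.05 for the ligands and 2.31 for the co-receptors. The median of the members was 1.6 when ERBB4 and BTC were included. The adaptor median was -0.071 after centring and -0.092 after upper quartile scaling, and the median of the MAPK transcripts was -0.050, -0.067 and, without a filter, -0.088. No limit of detection is known for levels near 0.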

Other observations

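The surroundings of the receptor genes were described in the same way. The calls again use log2(TPM + 1) at the lowest position of the mark, so some neighbours passed 2-fold in the plain ratio only and were not called. Within 500 kb of ERBB2, 21 protein-coding genes had a mean of at least 1 TPM. Of these, 6 were higher and 5 were lower in RC77 T/E cells by 2-fold or more, beside 19.4% and 20% over all genes. GRB7, an adaptor gene 7.5 kb from ERBB2, had 2.3 times its MDA PCa 2b level in RC77 T/E cells, opposite in direction to ERBB2, and STARD3, named after its value was seen, was 1.46 times as high there. PPP1R1B, 51.3 kb from ERBB2, had 392 TPM in MDA PCa 2b against 0.445 TPM in RC77 T/E. CSF3, which encodes granulocyte colony-stimulating factor, was at 0.00834 and 119 TPM. The genes around ERBB2 thus did not share a direction.

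Within 500 kb of ERBB3, 32 protein-coding genes had a mean of at least 1 TPM, with a median log2 ratio of -0.64 beside -0.15 over all genes. Of the 32, 7 were lower and 4 higher in RC77 T/E cells by 2-fold or more. Over all genes 20% were lower and 19.4% higher, and the neighbour counts below stand beside the same shares. RNF41 lies 98.7 kb from ERBB3, and GDF11, a ligand of the TGF-beta family, had 15 times its RC77 T/E level in MDA PCa 2b. DGKA, a diacylglycerol kinase gene 122.8 kb from ERBB3, had 15 times its MDA PCa 2b level in RC77 T/E cells. The adjacent gene PA2G4, named after its values were seen and known to encode an ERBB3-binding protein, had 110 TPM in MDA PCa 2b against 70.7 TPM in RC77 T/E. Around EGFR, 3 neighbours had a mean of at least 1 TPM, of which VOPP1 had 3.06 times its MDA PCa 2b level in RC77 T/E and LANCL2 had 2.82 times its RC77 T/E level in MDA PCa 2b. Of the 8 neighbours of TGFA with a sufficient mean, 0 were higher and 1 was lower in RC77 T/E cells by 2-fold or more, opposite in sign to TGFA. That gene, VAX2, had 2.76 or 27.6 TPM in MDA PCa 2b but is listed at 0 for RC77 T/E. TEX261, named after its values were seen, had 2.47 times its RC77 T/E level in MDA PCa 2b. It was not called because its log2 ratio was -0.95 at the lowest position of its mark.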
